A study of Homo sapiens with 2 samples.

Results

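The genes described here build and police the attachment of chromosomes to the mitotic spindle. They were taken from the expression table by symbol, as every row named CENP with a further letter, ANAPC with a number, CDC16, CDC20, CDC23, CDC26 or CDC27, and 18 further genes of the kinetochore, the spindle checkpoint, the chromosomal passenger complex and the spindle. In all, 51 of 10836 rows were members. CENPB, CENPC, CENPR, CENPS and CENPX had no row under these symbols and were not analysed here. The rule uses symbols and no measured value.

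The cells were HCT116, an established human colon cancer line, and both libraries came from the same kind of culture irradiated with ultraviolet light, homogenized and sonicated. In the RIP library, RNA was eluted from beads that carried the CNBP antibody H-7, whereas the input library held RNA without that selection. CNBP has zinc knuckles and binds guanine-rich stretches of unpaired RNA and DNA. There was 1 library per group and no library of a control antibody was used here, so no spread can be given, no test was run and the part of recovery that does not depend on CNBP cannot be told apart.

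The kinetochore assembles on centromeric chromatin that holds the histone variant CENP-A. An inner layer, the constitutive centromere-associated network, joins this chromatin to the outer Ndc80 complex, which grips microtubules. Kinetochores without proper attachment feed the spindle checkpoint, which restrains CDC20 and the anaphase-promoting complex (APC), a ubiquitin ligase that sends securin and cyclin B to the proteasome.

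Levels are FPKM, fragments per kilobase of transcript and per 1000000 mapped fragments. They summed to 109684 in the RIP against 214387 in input. Each ratio is the log2 of RIP FPKM plus 1 over input FPKM plus 1, so that low genes have understated ratios. The median of all rows was 0.28 as deposited and 0.85 after each library was rescaled to the mean of the sums. Ratios are given against 0 unless said otherwise, and a ratio between 0 and 0.28 lies below the median row. Epithelial keratins were abundant in both libraries, with KRT18 at 199 FPKM in the RIP against 564 in input. KRT8 had 160.0 and 433 FPKM, EPCAM 21.2 and 109 FPKM and CDX2 2.62 and 4.68 FPKM. CDH1, which encodes E-cadherin, ran the other way at 3.88 FPKM in the RIP against 0.415 in input (1.79). VIL1 and LGALS4, which were also listed as colon epithelial markers, had no row. Of the 5 genes listed as markers of other cell types only COL1A1, a fibroblast collagen, had a row, at 4.92 FPKM in the RIP against 0.199 in input.

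As a group the genes lay lower in the RIP than most genes. Their median ratio was -0.87, and 34 of 51 lay below 0, as did 4811 of all 10836 rows. At a ratio of at least 2 (4-fold), 4 members were higher in the RIP, where 12.5% of all rows were. These were INCENP, MKI67, CENPF and CASC5, of which CASC5 had only 0.0154 FPKM in input. At -2 or below, 11 members were lower, where 13.5% of all rows were. At 0.58 (1.5-fold), 13 members were higher (42.6% of all rows) and 29 were lower (34.7% of all rows), leaving 9 between. After the rescaling, 18 were at least 1.5-fold higher and 23 lower, beside 56.8% and 24.5% of all rows. The members took 0.350% of the summed FPKM in the RIP, beside 0.316% in input. A total of 4 members were listed at 0 in the RIP against 1 in input, beside 1050 and 181 of all 10836 rows.

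**Figure D1:**
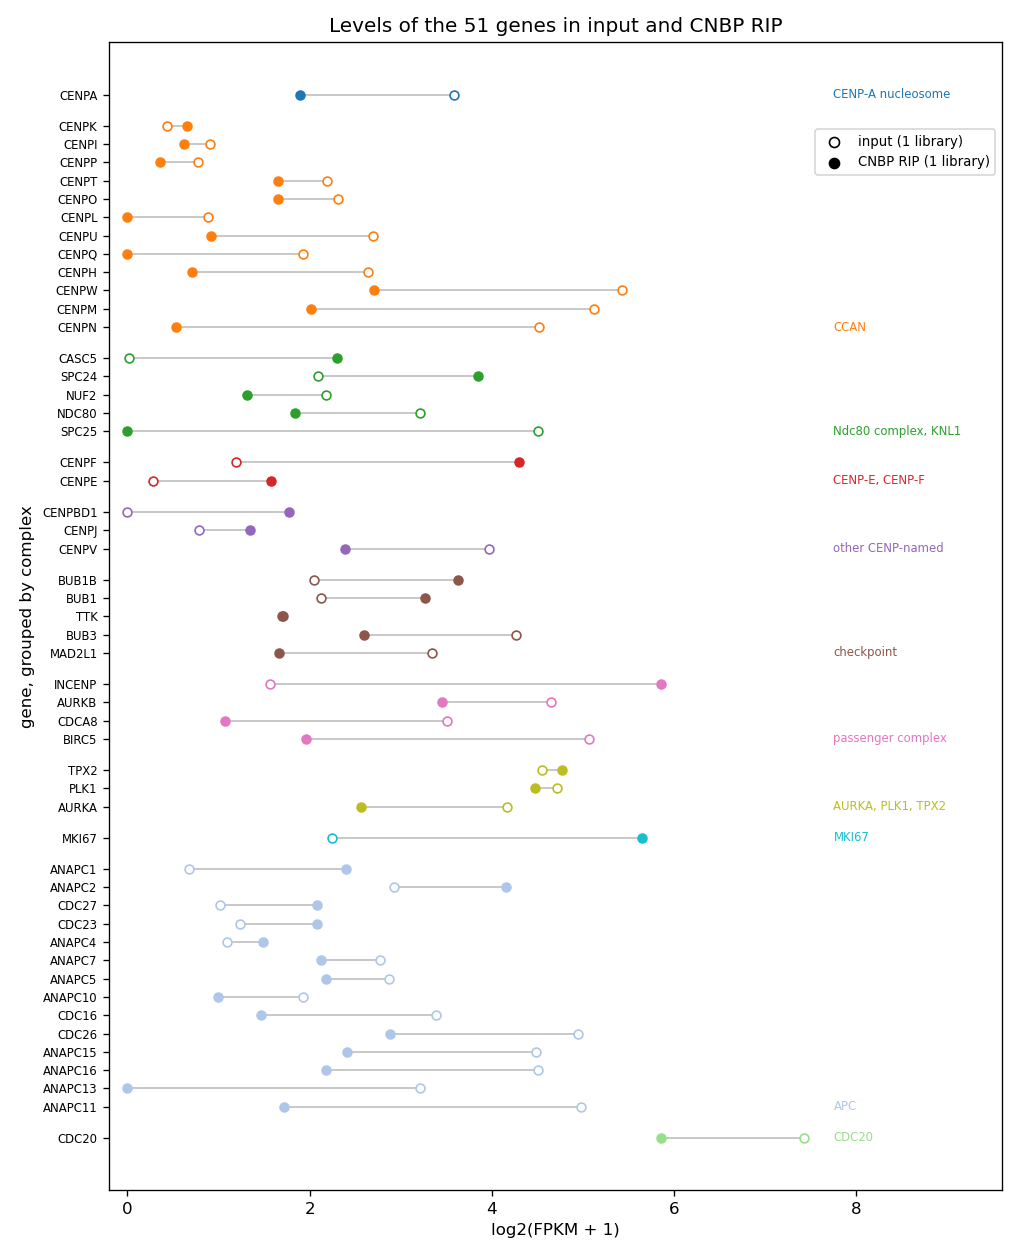
Level of each of the 51 genes, as log2(FPKM + 1) on the x axis, in the input (open points) and the CNBP RIP (filled points), with genes in rows by complex and 1 library per group. INCENP and MKI67 have the filled point far to the right of the open point, whereas SPC25 and CENPN have it far to the left.

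GGAG is a guanine-rich tetramer of the kind that CNBP is known to bind, and it was looked for in the first 50 bases from each start that RefSeq gives (GRCh38.p14), on the transcribed strand only. Starts were matched for 41 members, and 20 of them (48.8%) held GGAG in at least 1 such window, as did 4529 of 8789 genes of the table (51.5%). Members with it had a median ratio of -0.90 and members without it -0.66, whereas over all genes the medians were 0.39 and 0.12. The stretches of 30 bases below belong to the 4 lowest and the 4 highest ratios among the 20. All 20 were chosen for holding GGAG, so its presence at both ends of the range was fixed by the choice. Capitals mark GGAG, and a match is a description of letters and no binding site.
SPC25: tggcggggctgcgGGAGctgagcctagagt
CENPN: cgggaacagctcttgaGGAGtgagactgca
ANAPC11: ggGGAGgcgcgtgcgcactggcgtgcgaga
ANAPC13: cacgtgatgcgggGGAGggggggggggcgt
CENPE: ctgataggatggcGGAGgaaGGAGccgtgg
BUB1B: gccggtttgttagGGAGtcgtgtacgtgcc
SPC24: tccgcgacatagaGGAGgtgagccaggggc
MKI67: agaaggaagtGGAGggctgacgctgcgggc

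In GRCh38.p14 the stretch of SPC25 is chr2:168890388-168890417 on the minus strand, that of CENPN chr16:81007234-81007263 on the plus strand, that of ANAPC11 chr17:81891713-81891742 on the plus strand and that of ANAPC13 chr3:134485989-134486018 on the minus strand. Those of the higher genes are chr4:103198298-103198327 for CENPE (minus), chr15:40161083-40161112 for BUB1B (plus), chr19:11155737-11155766 for SPC24 (minus) and chr10:128126394-128126423 for MKI67 (minus). SPC25 was listed at 0 FPKM in the RIP and MKI67 at 49.1 FPKM. Stretches were printed only where the tetramer occurred, and only that of CENPE holds it more than once.

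Of the genes of the centromere and inner kinetochore, all but CENPK had a ratio below 0 with FPKM as deposited. CENPA, the histone H3 variant that marks the centromere, had 2.72 FPKM in the RIP against 11.0 in input, a ratio of -1.68. In the constitutive centromere-associated network, 12 genes had a median of -1.33 (-0.93 after rescaling), with 8 at least 1.5-fold lower and none at least 1.5-fold higher. CENPN, which reads the CENP-A nucleosome, was the lowest with both libraries above 0, at 0.448 FPKM in the RIP against 22.0 in input (ratio -3.99). Its locus in the hg19 table is chr16:81040103-81066719 on the plus strand. CENPM, a subunit of the CENP-H/I/K/M module, had 3.05 and 33.9 FPKM (-3.11). CENPW, a histone-fold partner of CENP-T, was the network's most abundant gene in the input at 42.0 FPKM and had 5.55 in the RIP (-2.72). These 3 were the network's only genes with a ratio of -2 or below.

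The highest ratios of the network belonged to scarce genes. CENPK had 0.570 FPKM in the RIP against 0.354 in input (0.21, below the median row), and CENPI, its partner in the same module, had 0.535 and 0.881 (-0.29). CENPQ and CENPL were listed at 0 in the RIP, with 2.79 and 0.839 FPKM in the input. For CENPL the FPKM of the input would give an estimated 0.760 RIP fragments. At that estimate its 0 cannot be told from an equal level. The other members were CENPP, CENPT, CENPO, CENPU and CENPH, with ratios from -0.43 (CENPP) down to -1.93 (CENPH). After rescaling, CENPI (0.10), CENPO (0.058) and CENPT (0.17) turned above 0, and none of the 12 was at least 1.5-fold higher.

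The Ndc80 complex and its scaffold did not share a direction. CASC5, which encodes KNL1, the scaffold that recruits BUB proteins, had 3.94 FPKM in the RIP against 0.0154 in input (ratio 2.28). Its fragments in the input are uncertain, with an estimated lower bound of 0.497. The ratio of CASC5 was 1.17 when centred on rows of like input FPKM and 0.83 with a pseudocount of 5. SPC24 had 13.4 and 3.26 FPKM (1.76), whereas its dimer partner SPC25 was listed at 0 in the RIP and had 21.8 FPKM in the input, the lowest ratio of all members at -4.51 on the pseudocount scale. SPC24 and SPC25 proteins pair and anchor the complex to the inner kinetochore. The genes of the microtubule-binding pair lay between, NUF2 at 1.48 and 3.52 FPKM (-0.87) and NDC80 at 2.59 and 8.29 FPKM (-1.37).

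CENPF and CENPE, the only genes placed here in the fibrous corona, the outermost kinetochore layer, both had ratios above 0. CENPF, a very large coiled-coil protein, had 18.7 FPKM in the RIP against 1.28 in input (ratio 3.11, percentile 96.6 among all rows). CENPE, the kinetochore kinesin that moves chromosomes to the spindle equator, had 1.98 and 0.214 FPKM (1.29). The number of fragments behind CENPE is uncertain, with estimated lower bounds of 0.574 in the RIP and 1.06 in input. Centred on rows of like input FPKM, the ratio of CENPE was 0.079.

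A few further genes carry the CENP prefix. CENPJ, a centriole assembly factor, had 1.54 FPKM in the RIP against 0.721 in input (0.56). CENPV had 4.24 and 14.6 FPKM (-1.58). CENPBD1 was listed at 0 in input and had 2.42 FPKM after precipitation, and a fold against 0 was not formed.

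The spindle checkpoint split by gene, with a median of -0.01 over 5 genes. BUB1B, which encodes BUBR1 of the mitotic checkpoint complex, had 11.3 FPKM in the RIP against 3.14 in input (1.57), and BUB1, the kinase that marks centromeres, had 8.64 and 3.36 (1.15). TTK, the MPS1 kinase at the head of the checkpoint, was nearly level at 2.23 and 2.26 FPKM (-0.01, or 0.67 after rescaling). The small adaptors lay lower, BUB3 at 5.03 and 18.3 FPKM (-1.68) and MAD2L1, which encodes MAD2, the inhibitor of CDC20, at 2.16 and 9.16 FPKM (-1.69). MAD2L1 and BUB1B proteins sit in one inhibitory complex, and their mRNAs lay on opposite sides of the input.

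The chromosomal passenger genes lay far apart. INCENP, the scaffold that binds the other 3 subunits, had 57.0 FPKM in the RIP against 1.96 in input, the highest ratio of the members at 4.29 (percentile 99.3). Its locus in the hg19 table is chr11:61891445-61920635 on the plus strand. The kinase of the complex, AURKB, had 9.95 and 24.0 FPKM (-1.19). CDCA8, which encodes borealin, had 1.09 and 10.4 FPKM (-2.44) and BIRC5, which encodes survivin, had 2.88 and 32.6 (-3.11). In the input INCENP was the scarcest of the 4 mRNAs and in the RIP the most abundant.

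**Figure D2:**
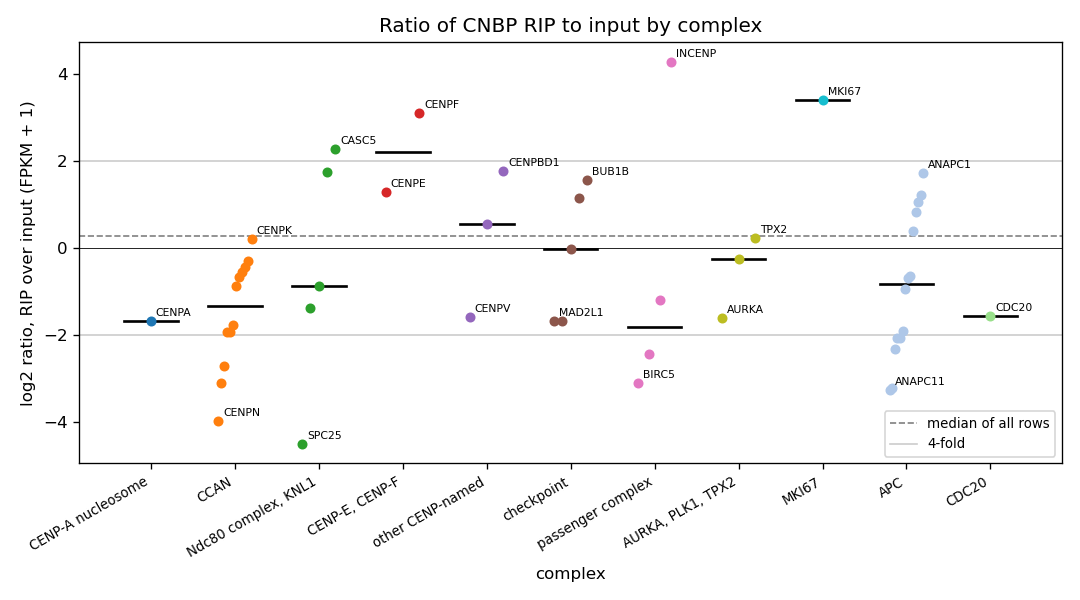
The y axis is the log2 ratio of RIP over input, from FPKM plus 1, and each point is a gene placed by complex, with a bar at the median of the complex. INCENP at 4.29 stands above its passenger partners, the APC runs from 1.72 (ANAPC1) to -3.27 (ANAPC11), and the centromere-associated network (CCAN) reaches no higher than 0.21.

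Among the spindle genes, TPX2, an activator of Aurora A on microtubules, had 26.4 FPKM in the RIP against 22.5 in input (0.22, or -0.06 after centring on the median of all rows). PLK1, a mitotic kinase at centrosomes and kinetochores, had 21.2 and 25.2 FPKM (-0.24, turning to 0.69 after rescaling). AURKA, the centrosomal Aurora kinase, had 4.91 and 16.9 FPKM (-1.60). MKI67, the proliferation antigen that coats mitotic chromosomes, had 49.1 and 3.73 FPKM (3.41, percentile 97.8), with its locus at chr10:129894923-129924649 on the minus strand of hg19.

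In the APC, 14 genes had a median of -0.82 (-0.12 after rescaling), with 4 at least 1.5-fold higher and 9 lower. ANAPC1, the largest scaffold subunit, had 4.26 FPKM in the RIP against 0.594 in input (1.72). ANAPC2, the cullin subunit of the catalytic core, had 16.8 and 6.58 (1.23). CDC27 (1.07) and CDC23 (0.84), whose proteins belong to the arm of tetratricopeptide repeats, were the other members at least 1.5-fold higher.

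Other subunits lay at the opposite end. ANAPC11, the RING subunit that pairs with ANAPC2 in the catalytic core, had 2.28 FPKM in the RIP against 30.6 in input (-3.27). ANAPC13 was listed at 0 in the RIP and had 8.23 FPKM in the input. ANAPC16 (-2.32), ANAPC15 (-2.08) and CDC26 (-2.06) were the other 3 genes at least 4-fold lower. The genes between were ANAPC4 (0.39), ANAPC7 (-0.64), ANAPC5 (-0.70), ANAPC10 (-0.94) and CDC16 (-1.92), and both ANAPC5 and ANAPC7 turned above 0 after rescaling, at 0.10 and 0.14.

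CDC20, the activator that brings substrates to the APC, was the most abundant member in both libraries, with 57.1 FPKM in the RIP against 171 in input (-1.57). INCENP followed it closely in the RIP. The other members highest in the input were CENPW, BIRC5, CENPM and ANAPC11, and each of these was more than 4-fold lower in the RIP. The ratio contains the input level, so picking genes by a high input favours low ratios. Centred on rows of like input FPKM, these genes stood at -0.56, -0.96, -0.95 and -1.11, in that order.

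Across the members pooled, ratios were higher at longer loci. Locus span is the distance from the start to the end of the gene in the table. The 18 members under 20 kb had a median ratio of -1.87, the 15 from 20 to 40 kb had -0.88 and the 18 of at least 40 kb had 0.31. Over all rows the same classes had -0.63, 0.15 and 0.81. Spearman's rho between ratio and span was 0.42 across the members (n = 51) and 0.37 across all rows, a description across genes of the same 2 libraries. After the median of all rows of like span was subtracted, the rho over members was 0.17. INCENP and MKI67, with spans of 29.2 and 29.7 kb, lay well above rows of their span, and SPC25, at 79.2 kb, lay well below.

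**Figure D3:**
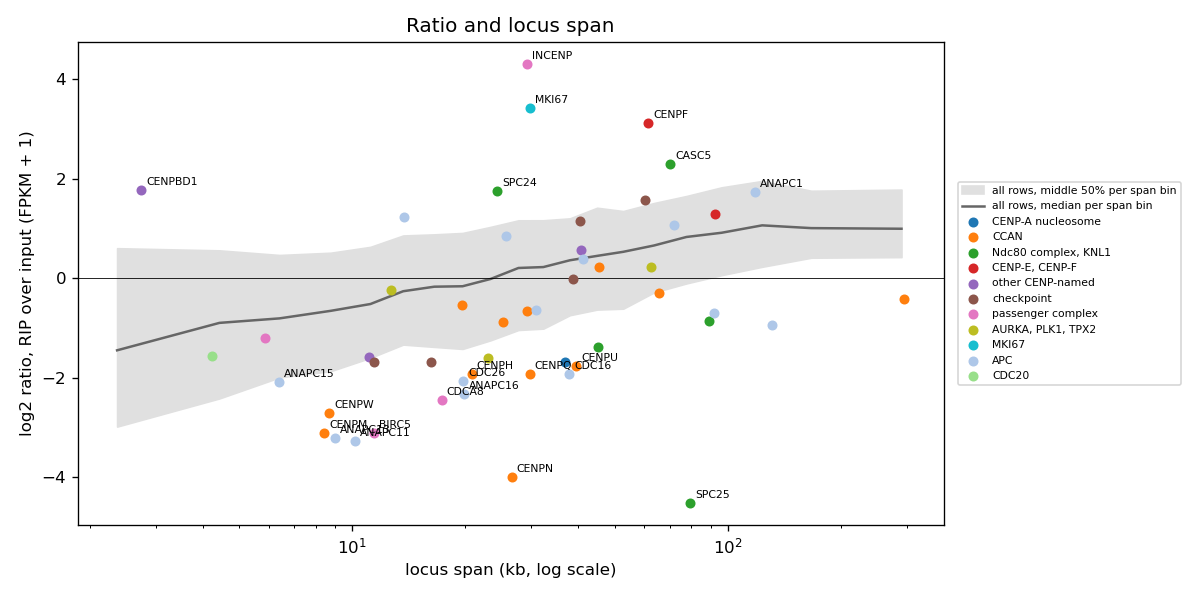
Log2 ratio of RIP over input (y axis, FPKM plus 1) against locus span in kb on a log scale, with members as points, the median of all rows per span bin as a line and the middle 50% shaded. The line climbs with span, and INCENP, MKI67, CENPF and SPC25 lie outside the shaded band.

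The ratio also ran with abundance. Its rho with input FPKM was -0.72 across the members and -0.61 across all rows, and the ratio contains the input level. After the median of rows of like input FPKM was subtracted, CDC20 stood at 1.55 and AURKB at 0.34, both above 0, so their direction depends on what they are compared with. The parts of length and abundance in the ratios were not tested.

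A total of 16 members share part of their locus with another row, 14 of them with genes on the opposite strand only. Their median ratio was -1.63, beside -0.29 for the rest of the members. Overlap was not counted over all rows, and its part in the ratios was not tested. CENPA overlaps SLC35F6 and ANAPC11 overlaps NPB on the same strand. The kit was stranded, but the sources used here do not say whether strand was used in counting, so the levels of these 16 are less certain.

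The depth behind these values was estimated from the values themselves. FPKM times a length recovered from the decimals repeats at a step of 2.71 FPKM kb in the RIP (162 rows) and at 0.159 in the input (14 rows). If a step is 1 fragment, the libraries hold 368908 and 6285355 fragments, a 17.0-fold gap, and the input step rests on few rows. A length was recovered for 45 members and may be a divisor of the true one, so fragment numbers are lower bounds and counts of genes with few fragments are upper bounds. The median member had 3.77 fragments in the RIP against 82.7 in input, and 35 of the 45 had under 10 in the RIP.

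INCENP, CENPF and ANAPC1 rested on more RIP fragments than most members. The folds beside fragment numbers are of FPKM with no pseudocount, and so run higher for scarce genes than the ratios above. INCENP had 94.0 fragments in the RIP against 55.0 in input, which gives a 29.1-fold excess (95% interval 20.7 to 41.4). CENPF had 80.6 and 94.3 fragments, or 14.6-fold (10.7 to 19.8). ANAPC1 had 20.9 and 49.8 fragments, or 7.17-fold (4.09 to 12.2). Each interval covers counting error only, and PCR copies are not independent molecules.

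Among low genes, BIRC5 had 4.06 fragments in the RIP where the FPKM of the input would give 45.9, and was 11.3-fold lower (4.43 to 41.1). ANAPC11 had 3.39 where 45.4 would be expected, and was 13.4-fold lower (4.84 to 57.4). ANAPC13 had none where 7.17 would be expected, and against a floor of 3 fragments it was at least 2.39-fold lower. For TTK the interval ran from 0.248-fold to 2.72-fold, so a difference was not detectable at this depth. Of the 45 members with a length, the interval lay below 1 for 16 and above 1 for 10. It held 1 for 19, among them MAD2L1 (0.00874-fold to 1.23-fold). Fragment numbers are lower bounds, so these intervals may be too wide.

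**Figure D4:**
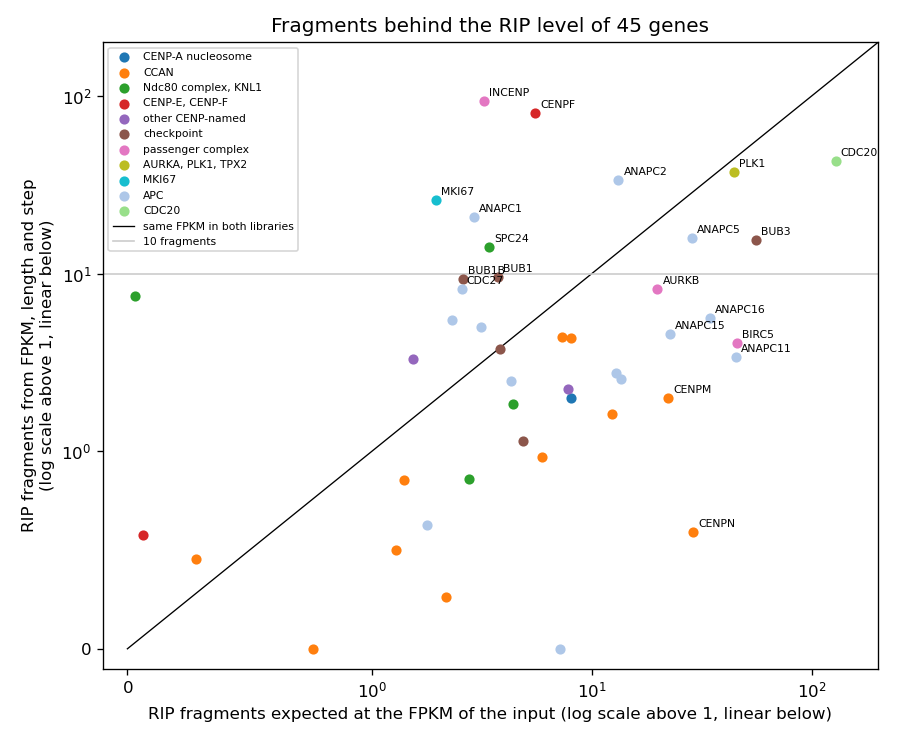
Estimated RIP fragments of the 45 members with a recovered length (y axis) against the number expected if the RIP had the FPKM of the input (x axis), both on a log scale above 1 and linear below, with a line where both libraries have the same FPKM. INCENP (94.0) and CENPF (80.6) lie far above the line, and most of the points lie under the mark of 10 fragments.

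Partners of these complexes that carry other names were counted in the same way. Of 30 such genes listed, 28 had a row, and their median ratio was -1.03, with 7 at least 1.5-fold higher (42.6% of all rows) and 17 lower (34.7% of all rows). MAD1L1, the kinetochore receptor of MAD2, had 29.8 FPKM in the RIP against 3.80 in input (2.68), opposite to MAD2L1. ESPL1, the protease separase, had 9.36 and 1.47 FPKM (2.07), whereas PTTG1, which encodes its inhibitor securin, had 3.83 and 87.4 (-4.19), the lowest of the list.

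The remaining lists ran from high to low within themselves. In the Mis12 complex and its KNL1 partner, ZWINT had 39.7 FPKM in the RIP against 24.6 in input (0.67) and PMF1 had 5.08 and 21.5 (-1.89). In the RZZ, Spindly and SKA genes, KNTC1, the ROD subunit, had 2.03 and 0.423 (1.09) and SKA3 had 0.889 and 7.93 (-2.24). Among genes that deposit CENP-A, MIS18A had 23.8 and 10.1 FPKM (1.16), and OIP5 was listed at 0 in the RIP with 5.09 FPKM in the input. Of the checkpoint partners the lowest was MAD2L1BP, at 2.54 and 23.4 FPKM (-2.79).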

How the data were processed

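RNA of 1 CNBP RIP and 1 input library of HCT116 cells was analysed. The authors deposited FPKM per gene. Build hg19 and the tools HISAT2, StringTie, cutadapt and FastQC are named in the submitters' processing notes, with no versions. The table holds protein-coding rows with at least 0.5 FPKM in 1 or both libraries, so genes scarce in both are not counted. FPKM divides by transcript length and is not scaled to a common sum.

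Ratios were computed with Python 3.11.15, pandas 2.3.3, numpy 2.4.6 and scipy 1.17.1, with a pseudocount of 1 and rules of size of 4-fold and 1.5-fold in place of tests. Members and lists were chosen with earlier results of these data known. Genes were named by a rule: members listed at 0 in 1 library, the 2 highest and 2 lowest ratios of each group (all in groups of up to 5), the 5 members highest in the input, and the highest and lowest of each partner list. Others were named after their values were seen.

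Lengths were taken as the smallest whole number up to 25000 that leaves FPKM times length with at most 6 decimals in both libraries. The recovery was tested on simulated data, where it often returned a divisor of the true length. Intervals were exact binomial (Clopper-Pearson) ones of the fragment split. Alternatives were other pseudocounts, filters, scalings and centrings. Centring by recovered length and both fragment filters were added after seeing the data.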

Additional observations from a re-analysis of the deposited data

How the results depend on the processing

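With 1 library per group no paired analysis was possible because the result comes from no test. Centring by protein length was not run. With a pseudocount of 0.1, 8 members were at least 4-fold higher and 17 lower (27.9% and 22.7% of all rows), and the centromere-associated network had a median of -2.68. With 5 these were 2, 6 (3.09% and 6.66%) and -0.48. Among rows that averaged 1 FPKM or more the network median was -1.93. Rescaling to the mean sum gave a member median of -0.20, an APC median of -0.12, 9 members 4-fold higher and 6 lower (22.6% and 8.18%), and ANAPC5, ANAPC7 and CENPO at 0.10, 0.14 and 0.058. With the sums taken over all but the top 20 of each library, it gave -0.28, -0.20, 9 and 6 (21.2% and 8.68%), with ANAPC5 at 0.0080 and ANAPC7 at 0.051, and the median of all rows at 0.78. Centring by locus span gave an APC median of -1.44 and a rho of ratio and span of 0.17. Centring by input FPKM gave a member median of -0.28, 3 members 4-fold lower (4.20% of all rows), 19 members 1.5-fold lower, a rho of 0.067, AURKB at 0.34 and CDC20 at 1.55. Centring by recovered length put ANAPC7 at 0.018. The next 2 filters were chosen after seeing the data. Keeping members with at least 10 RIP fragments left 10 and turned the member median to 1.48 and the APC median to 1.23, with 6 members 1.5-fold higher, 3 lower and 0 at least 4-fold lower. That filter keeps members through their RIP level, so it favours high ratios by construction, and no network gene passed it. Rows outside the members were not filtered this way, so no like share of all rows was formed. Keeping rows whose RIP fragments plus those expected at the input level reached 10 left 27 members. Of these, 16 were at least 1.5-fold lower, beside 36.9% of all rows so kept. The APC median was then -1.92 and the network median -2.72. Of 623 single-gene ratios over all alternatives, 26 had the opposite sign, in 13 genes, and 8 of these, in 5 genes, had been at least 1.5-fold from 1. Other causes of these shifts were not tested. Depth limits single genes, since up to 35 of 45 members with a length had under 10 RIP fragments.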
